A study of Ovis aries with 6 samples.

Results

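The 6 genes described here are monocarboxylate transporter genes and their chaperone: SLC16A1, SLC16A3, SLC16A4 and SLC16A7 of the proton-linked family, BSG, and the sodium-coupled transporter gene SLC5A8. They were chosen by gene, not by value. Each was matched by its NCBI gene number to a single row of the count matrices, so all 6 of the 6 were found among 26741 genes. Nuclear RNA was measured by 10x Genomics droplets in the epithelium of the ventral sac of the rumen, 1 library per animal. The animals were 6 male lambs, 3 in a group labelled MGNS and 3 in a group labelled MGHS. Its title speaks of grazed sheep and a feed supplement, but the labels spell out neither group name and give no age or breed, so the diet behind each name cannot be stated. All differences are MGHS against MGNS, and the 3 sheep of each group were picked at random, per the labels.

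Short-chain fatty acids are the acids that rumen microbes make from plant fibre, chiefly acetate, propionate and butyrate, and the rumen wall takes them up as a main source of energy. Proton-linked monocarboxylate transporters carry these acids, lactate and ketone bodies across cell membranes together with a proton, and basigin, the product of BSG, is the membrane glycoprotein that brings several of them to the cell surface. SLC16A1 codes for MCT1, SLC16A7 for MCT2 and SLC16A3 for MCT4, the form known for lactate export from glycolytic cells. The substrates of the SLC16A4 product are less well defined. SLC5A8 codes for a transporter that moves the same acids with sodium and is known from the luminal side of the gut. The rumen lining is a stratified epithelium whose cells divide in a basal layer, pass through a spinous layer and end as granular and keratinised cells facing the lumen.

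The 6 libraries held 34418856 to 59997793 unique molecules (UMIs) each. After filtering, 41893 nuclei remained, 4831 to 10263 per library, with medians of 3131 to 4770 UMIs. Any pair of libraries shared 5 to 22 barcodes, at most 0.37% of the smaller library. Nuclei were clustered and the clusters named from marker lists, with "-like" because the names rest on transcripts alone. The tissue label held, with 13900 keratinocyte-like nuclei, but T or NK-like nuclei (7891), fibroblast-like nuclei (3402) and other stromal and immune classes were also present. The library MGHS 3 stood apart, since cluster 0, an unnamed cluster with a median of 567 UMIs, made up 30.9% of its nuclei. Keratinocyte genes such as KRT36 and KRTDAP were among those leading that cluster. A level below is in CPM, the UMIs of a gene per 1000000 UMIs of a class in 1 animal. It is not corrected for gene length and is compared only between classes or animals, never between genes. The classes are clusters of the same nuclei, and SLC16A1 and SLC5A8 were among the 2000 variable genes used to cluster them, so levels by class are described without a test.

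The epithelial classes were the basal-like class (6150 nuclei), a cycling class (1414), the spinous-like class (2137) and the granular-like class (4199). Basal-like nuclei came in 2 clusters, cluster 4, led by CDH13, GRIP1, FRAS1 and SOX6, and cluster 3, led among others by KRT79, CA1 and GJA1, in which 5 of 12 basal markers stood above the other nuclei 2-fold against 11 of 12 in cluster 4. Keratinocytes form a continuum, and the borders between their classes depend on the clustering. The partition next in modularity, chosen after seeing the data, gave 95.3% of nuclei the same class but counted 4800 as basal-like and 3216 as spinous-like. Clustering without the 6 genes gave 97.4% the same class.

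SLC16A1, the MCT1 gene, was highest in the dividing end of the epithelium. In basal-like nuclei its level was 797.8, 399.3 and 609.8 CPM in MGNS and 1034, 1264 and 1021 CPM in MGHS. In cycling keratinocyte-like nuclei it was 797.6, 554.97 and 727.8 CPM in MGNS and 1106, 1194 and 856.3 CPM in MGHS. These 2 classes overlapped, and cycling was the higher of the 2 in 3 of 6 animals. Within the basal-like class, cluster 4 had 1070.4, 669.6 and 770.3 CPM in MGNS and 1156, 1487 and 1374 CPM in MGHS, and cluster 3 had 509.1, 142.2 and 425.5 CPM in MGNS and 867.1, 912.9 and 827.9 CPM in MGHS. Cluster 4 was the higher in 6 of 6 animals, 1.77-fold on average. Spinous-like nuclei had 26.5, 9.65 and 33.5 CPM in MGNS and 27.4, 55.01 and 92.4 CPM in MGHS, and granular-like nuclei had 12.5, 14.1 and 19.3 CPM in MGNS and 17.1, 40.3 and 55.9 CPM in MGHS. The mean level of spinous-like nuclei was 20.96-fold below that of basal-like nuclei (11.05-fold to 41.4-fold by animal) and 15.1-fold below that of cluster 3, in 6 of 6 animals each time. Granular-like nuclei were the lower of the last 2 classes in 5 of 6 animals. The first of these folds depends on where the border is drawn, since it was 9.72-fold in the next-best partition, 11.2-fold at clustering resolution 1.2 and 12.3-fold at 0.5. Basal-like nuclei made up 14.7% of all nuclei and held 66.1% of the 61552 SLC16A1 UMIs. All keratinocyte-like nuclei together held 87.2%.

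SLC16A1 was found in each of the 15 classes with 20 or more nuclei in every animal, although 1 MGHS animal had no UMI of it in B or plasma-like nuclei. Among these 15, after cycling (872.9 ± 239.2 CPM, SD over 6 animals) and basal-like nuclei (854.2 ± 315.4 CPM) came the unnamed clusters 13 (285.5 ± 167.9 CPM) and 0 (215.2 ± 104.1 CPM). The order went on from lymphatic endothelial-like nuclei (107.2 CPM) down to granular-like nuclei (26.6 CPM). From cycling nuclei down, the ranges of all neighbouring classes overlapped, although basal-like nuclei exceeded cluster 13 in 6 of 6 animals. Granular-like nuclei had the lowest mean of the 15, and in none of the 6 animals did they exceed T or NK-like nuclei, a blood-derived class (48.3 ± 21.1 CPM). The same held in the 4 other clusterings. Granular-like nuclei are the deeper of the 2, with a median of 9013 UMIs against 2585, and the order was the opposite per nucleus, with 1184 SLC16A1 UMIs in 4199 granular-like and 1010 in 7891 T or NK-like nuclei. The part of free RNA in the granular-like level was not tested. Spinous-like nuclei exceeded T or NK-like nuclei in 1 of 6 animals, but in 6 of 6 with the next-best partition and its larger spinous-like class.

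**Figure D1:**
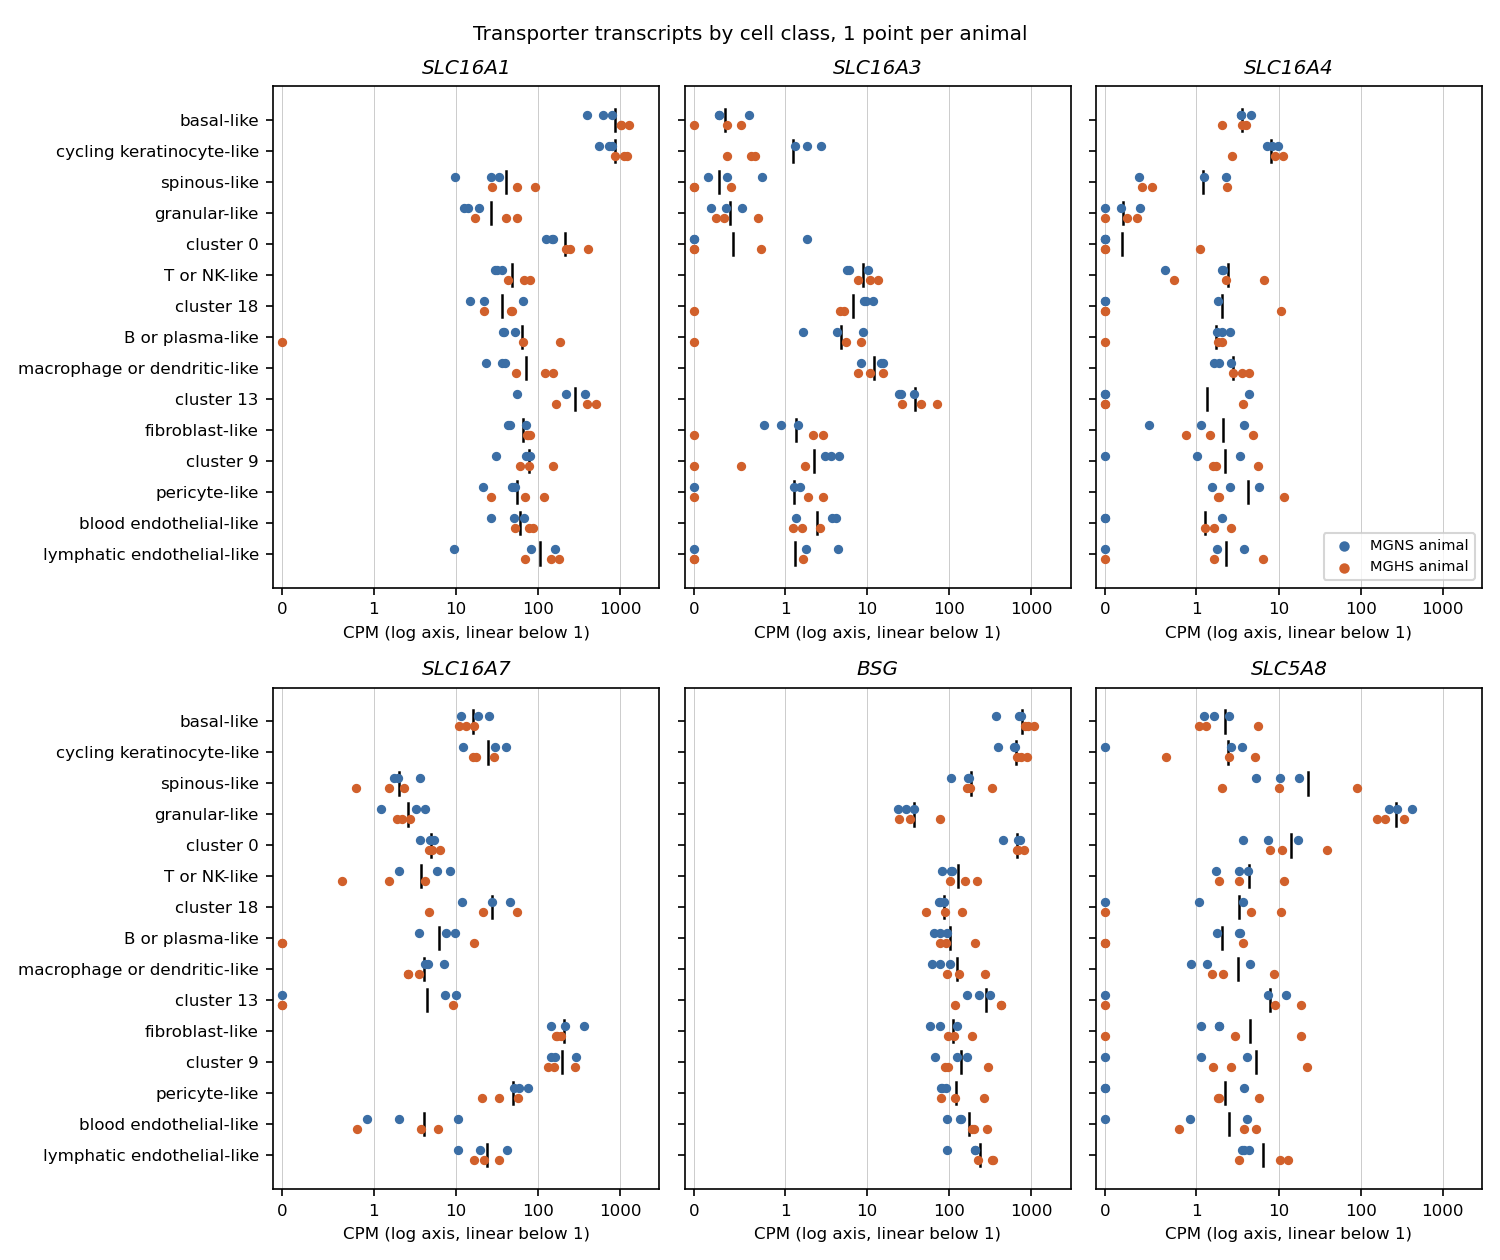
CPM of each of the 6 genes (horizontal log axis, linear below 1) in 15 cell classes, with 1 point per animal, MGNS in blue and MGHS in orange, and a black tick at the mean of the 6 animals. SLC16A1 and BSG are high in basal-like and cycling nuclei, SLC5A8 is highest in granular-like nuclei (mean 267.4 CPM) and SLC16A7 in fibroblast-like nuclei (mean 207.2 CPM).

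The share of nuclei with an SLC16A1 UMI gave the same contrast between basal-like and T or NK-like nuclei. Because classes differ in depth (a median of 7360.5 UMIs in basal-like and 2585 in T or NK-like nuclei), each nucleus was thinned to 1000 UMIs and shallower nuclei were left out, 149.0 in MGNS and 241.0 in MGHS among basal-like nuclei. The thinned share of basal-like nuclei was 44.9%, 26.9% and 38.6% in MGNS and 50.5%, 60.2% and 53.003% in MGHS. Unthinned shares were 62.6% to 85.8%. T or NK-like nuclei, which serve as the background, gave 2.61%, 2.83% and 3.35% in MGNS and 3.53%, 5.15% and 7.45% in MGHS, so every animal's basal-like share lay far above its own background.

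BSG, the chaperone gene, was also highest at the basal end of the epithelium, with its steps between layers spread differently. Its basal-like level was 740.8, 367.9 and 707.3 CPM in MGNS and 836.7, 912.2 and 1064 CPM in MGHS. Cluster 3 had 778.5, 350.5 and 807.6 CPM in MGNS and 981.9, 1075 and 1180.0 CPM in MGHS, and cluster 4 had 705.2, 386.1 and 620.03 CPM in MGNS and 730.5, 808.3 and 849.9 CPM in MGHS. Cluster 3 was the higher in 5 of 6 animals, the reverse of the order for SLC16A1. The spinous-like level was 167.04, 105.99 and 173.1 CPM in MGNS and 164.2, 176.3 and 329.02 CPM in MGHS, and the granular-like level 37.3, 23.8 and 29.6 CPM in MGNS and 24.2, 33.1 and 75.9 CPM in MGHS. From basal-like to spinous-like nuclei the mean differed 4.15-fold (3.23-fold to 5.17-fold), in 6 of 6 animals, against 20.96-fold for SLC16A1. From spinous-like to granular-like nuclei it differed 4.98-fold, in 6 of 6 animals, against 1.53-fold for SLC16A1. Spinous-like nuclei exceeded T or NK-like nuclei in BSG in 6 of 6 animals, and granular-like nuclei in none. With the next-best partition the first step was 2.55-fold for BSG and 9.72-fold for SLC16A1, and the other step 8.23-fold and 3.92-fold. Keratinocyte-like nuclei held 74.6% of the 69509 BSG UMIs. Of the unnamed clusters, cluster 0 had 668.4 ± 118.8 CPM, near the cycling level. Among the named classes outside the epithelium with 20 or more nuclei in every animal, the 2 endothelial classes had the highest mean BSG, with 233.1 ± 90.7 CPM in lymphatic and 173.6 ± 69.1 CPM in blood endothelial-like nuclei against 127.8 ± 48.8 CPM in T or NK-like nuclei, although the ranges overlapped.

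SLC5A8, the sodium-coupled transporter gene, was at the opposite end of the epithelium. Granular-like nuclei had 418.3, 219.03 and 273.9 CPM in MGNS and 200.5, 156.2 and 336.5 CPM in MGHS, and held 87.8% of the 11214 SLC5A8 UMIs. Basal-like nuclei had 1.23, 2.51 and 1.66 CPM in MGNS and 1.32, 1.08 and 5.61 CPM in MGHS, with a mean 119.7-fold below that of granular-like nuclei (60.03-fold to 339.7-fold by animal). Basal-like nuclei were no higher on average than T or NK-like nuclei (4.35 ± 3.71 CPM). Spinous-like nuclei had 10.3, 5.36 and 17.8 CPM in MGNS and 10.1, 2.06 and 90.7 CPM in MGHS, above the basal-like and T or NK-like values of the same animal in 6 of 6 animals. Under the other 4 clusterings that was 4 to 6 animals for T or NK-like nuclei. MGHS 3 was far above the other 5 animals there. From spinous-like to granular-like nuclei the mean differed 11.8-fold, in 6 of 6 animals (3.71-fold to 75.95-fold by animal), and 27.8-fold without MGHS 3. The fold was 3.31, in 5 of 6 animals, when the 6 genes were left out of the clustering and 20.4 at resolution 1.2. The thinned share of granular-like nuclei with an SLC5A8 UMI was 22.4%, 13.1% and 16.4% in MGNS and 14.3%, 10.8% and 17.9% in MGHS.

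Few nuclei of the epithelium had UMIs of both SLC16A1 and SLC5A8. Of 4199 granular-like nuclei, 1463 had a UMI of SLC5A8 alone, 319 of SLC16A1 alone, 216 of both and 2201 of neither. An SLC16A1 UMI was present in 12.9% of the nuclei with SLC5A8 and in 12.7% of those without. Among 6150 basal-like nuclei 4639 had SLC16A1 alone, 90 had both and 22 had SLC5A8 alone. In the spinous-like class between them, 1675 of 2137 nuclei had neither.

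**Figure D2:**
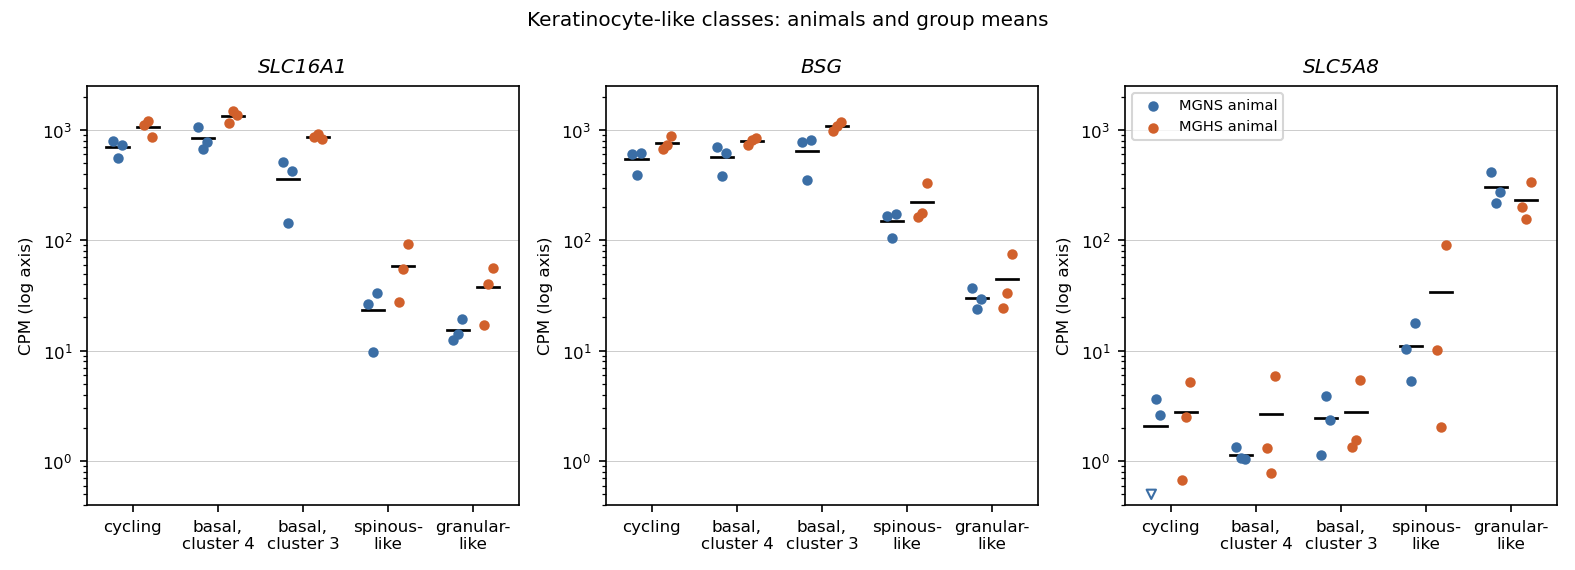
CPM (vertical log axis) of SLC16A1, BSG and SLC5A8 in cycling nuclei, the basal-like clusters 4 and 3, spinous-like and granular-like nuclei, with 1 point per animal, a bar at each group mean and an open triangle at the lower edge for an animal with no UMI. SLC16A1 is far lower in spinous-like nuclei than in cluster 3, BSG is lower at both of the last steps, and SLC5A8 reaches 156.2 CPM or more in the granular-like nuclei of every animal.

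SLC16A7, the MCT2 gene, was a stromal transcript in this tissue. Fibroblast-like nuclei had 214.4, 142.4 and 358.7 CPM in MGNS and 170.9, 192.4 and 164.2 CPM in MGHS. Cluster 9, which carried both fibroblast and smooth muscle markers, had 144.7, 160.99 and 293.4 CPM in MGNS and 156.2, 283.5 and 131.9 CPM in MGHS, and the 2 classes could not be ranked. They held 48.96% and 22.1% of the 6320 SLC16A7 UMIs. Pericyte-like nuclei followed at 49.4 ± 19.7 CPM, below both in 6 of 6 animals. Within the epithelium the gene was highest at the basal end, with 24.3 ± 10.9 CPM in cycling nuclei. Cluster 4 had 28.7, 17.6 and 39.6 CPM in MGNS and 27.1, 17.3 and 23.8 CPM in MGHS, while cluster 3 had 1.23 to 9.204 CPM, without overlap. Basal-like nuclei as a whole were 6.199-fold above granular-like nuclei and 12.9-fold below fibroblast-like nuclei, in 6 of 6 animals each.

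SLC16A3, the MCT4 gene, was nearly absent from keratinocyte-like nuclei. It had 52 of its 594 UMIs in all keratinocyte-like nuclei, and basal-like nuclei held 19 UMIs in all, at most 0.605 CPM in an animal. In basal-like nuclei of MGHS 1 no UMI was counted, and 3 counts, the limit that a count of 0 allows, would be 0.566 CPM. Its highest level was in cluster 13, led among others by CXCL8, C5AR1, OSM and PTAFR, with 24.5, 26.003 and 36.7 CPM in MGNS and 45.04, 70.4 and 26.2 CPM in MGHS on 54 UMIs. Macrophage or dendritic-like nuclei had 14.6, 8.42 and 15.7 CPM in MGNS and 7.73, 15.5 and 10.9 CPM in MGHS. T or NK-like nuclei had 5.996, 5.61 and 10.1 CPM in MGNS and 10.8, 13.7 and 7.78 CPM in MGHS. Cluster 13 exceeded the macrophage or dendritic-like class in 6 of 6 animals, while the latter and T or NK-like nuclei overlapped. The cluster 13 values rest on 3 to 18 UMIs per animal, and the 70.4 CPM of MGHS 2 on 3 UMIs. In the gene table SLC16A3 overlaps CSNK1D, and the sources used here do not say how reads of overlapping genes were assigned, so its counts are uncertain.

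SLC16A4 was the rarest of the 6, with 550 UMIs, 59.3% of them in keratinocyte-like nuclei. Cycling keratinocyte-like nuclei had 8.34, 7.25 and 9.87 CPM in MGNS and 2.68, 11.3 and 9.17 CPM in MGHS. Basal-like nuclei had 4.65, 3.46 and 3.46 CPM in MGNS and 2.08, 3.598 and 4.05 CPM in MGHS, below the cycling value in 6 of 6 animals (2.29-fold on average). Granular-like nuclei held 8 UMIs. SLC16A4 overlaps RBM15 in the gene table, with the same uncertainty.

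As a measure of free RNA, which droplet libraries carry in nuclei of every class, SLC16A1 UMIs were set against the summed UMIs of 12 basal keratinocyte markers in the same class. In basal-like nuclei there were 9.97, 5.54 and 7.13 in MGNS and 10.9, 14.3 and 11.8 in MGHS of SLC16A1 per 100 marker UMIs. T or NK-like nuclei gave 6.25, 6.801 and 6.19 in MGNS and 7.34, 11.4 and 8.59 in MGHS. That is below the basal-like ratio in 5 of 6 animals, the exception being MGNS 2. For BSG the corresponding ratio was 5.11 to 12.3 in basal-like nuclei and 17.4 to 25.9 in T or NK-like nuclei, higher in 6 of 6 animals. For SLC5A8, per 100 UMIs of SAMD8, FBXO32 and CRISP3, T or NK-like nuclei gave 1.36, 2.43 and 2.06 in MGNS and 0.763, 0.621 and 3.15 in MGHS, and granular-like nuclei 2.19, 2.47 and 1.68 in MGNS and 0.756, 0.613 and 1.75 in MGHS. In spinous-like nuclei the ratio was 11.5, 5.74 and 15.96 in MGNS and 3.74, 1.38 and 33.5 in MGHS. That is above granular-like nuclei in 6 of 6 animals and above T or NK-like nuclei in 6 of 6. SAMD8, FBXO32 and CRISP3 were among the genes leading the granular-like class in these same data. The order against granular-like nuclei therefore cannot separate free RNA from transcripts of the spinous-like nuclei. The part of free RNA in the spinous-like level was not tested. MGHS 3 stood apart for SLC5A8, since its level was also the highest of the 6 animals in basal-like, T or NK-like (11.7 CPM), fibroblast-like (19.04 CPM) and cluster 9 nuclei (22.2 CPM).

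**Figure D3:**
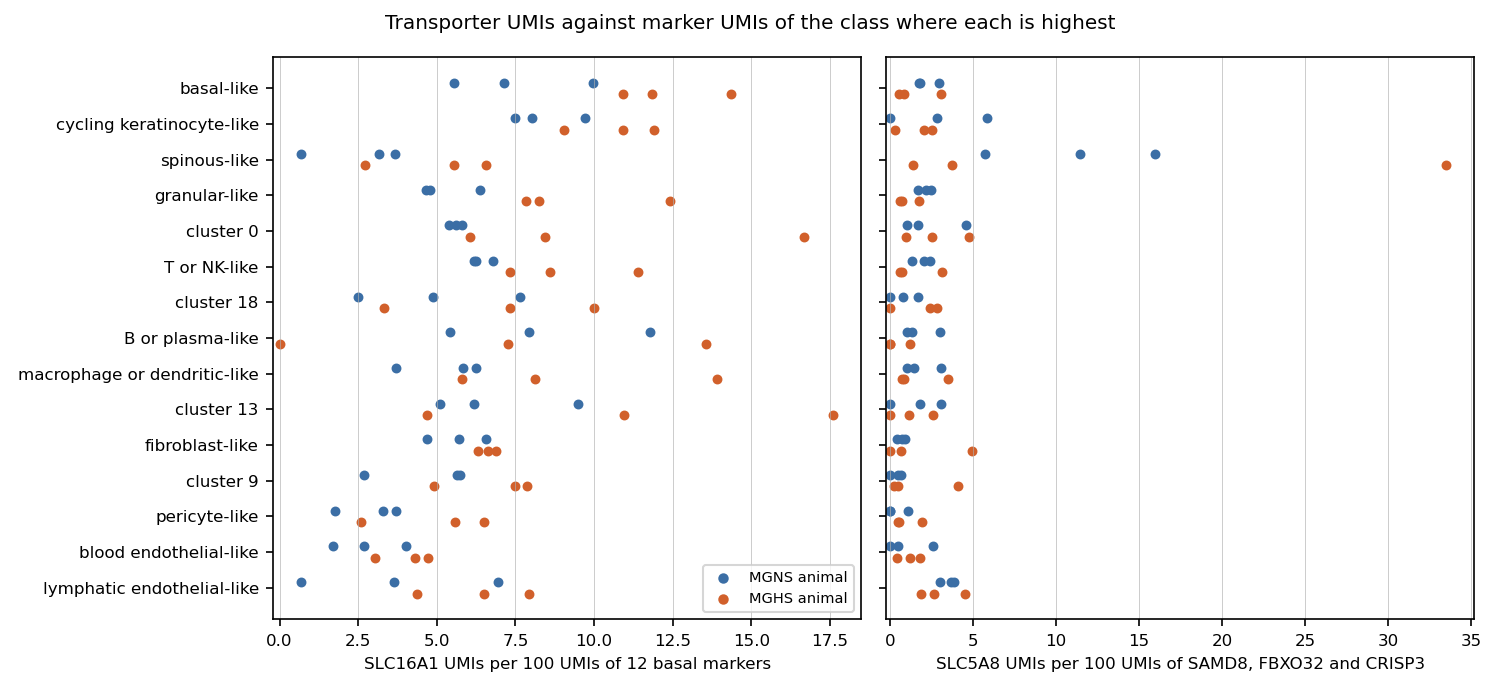
Left, SLC16A1 UMIs per 100 UMIs of 12 basal keratinocyte markers, and right, SLC5A8 UMIs per 100 UMIs of SAMD8, FBXO32 and CRISP3, by cell class with 1 point per animal. The SLC16A1 ratio of T or NK-like nuclei, 6.19 to 11.4, lies within the range of basal-like nuclei, and the SLC5A8 ratio has its highest mean, 11.97, in spinous-like nuclei, with MGHS 3 furthest right.

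The design compares the 2 groups. UMIs were summed per animal and class and tested across all genes with edgeR's quasi-likelihood test, with Benjamini-Hochberg adjustment over all genes of the class. The low-count filter left SLC16A1 and BSG tested in 15 of 15 classes, SLC16A7 in 9, SLC5A8 in 4 and SLC16A3 and SLC16A4 in 2 each. None of 53 member tests in these classes and in the sum of all nuclei passed an adjusted p of 0.05. The background was as low. Of all genes, 0.00703% passed in basal-like, 0.0484% in cycling, 0.00857% in spinous-like and 0.00828% in granular-like nuclei, 0.00848% in T or NK-like, 0.0807% in fibroblast-like, 0.104% in blood and 0.0805% in lymphatic endothelial-like nuclei and 0.221% in cluster 0. In all nuclei, all keratinocyte-like nuclei and each of the other classes it was 0%. At an unadjusted p under 0.05 there were 19 of the 53, each with a higher value in MGHS, 9 of SLC16A1, 9 of BSG and 1 of SLC5A8, against 12.2% of all gene tests in the same classes and sum. limma voom called 0. DESeq2 called 5, all SLC16A1 and all higher in MGHS, in all nuclei and in basal-like, granular-like, macrophage or dendritic-like and cluster 0 nuclei, against 2.33% of all its gene tests. Without the low-count filter edgeR called 4 of 96, against 0.809%, which were SLC16A1 in T or NK-like nuclei and cluster 0 and BSG in blood endothelial-like and pericyte-like nuclei.

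SLC16A1 was higher in MGHS on average in every class tested, 15 of 15. In basal-like nuclei the groups did not overlap (602.3 ± 199.4 CPM against 1106 ± 136.5 CPM, SD, n = 3), and the log2 fold change was 0.99 ± 0.30 (SE), with an edgeR adjusted p of 0.211. DESeq2 gave 0.98 with an adjusted p of 0.0306. MGNS 2 had the lowest basal-like level of the 6 animals, and with 1 animal left out the edgeR log2 fold change was 0.74 to 1.26. The groups did not overlap in either basal-like cluster, and the log2 fold change was 0.73 ± 0.24 in cluster 4 (edgeR adjusted p = 0.295) and 1.45 ± 0.46 in cluster 3 (edgeR adjusted p = 0.148), where 0.0474% and 0.0330% of genes passed. Cluster 4, with the higher level, was 51.5%, 49.1% and 53.4% of the basal-like nuclei in MGNS and 53.5%, 57.02% and 36.4% in MGHS. In cycling nuclei the groups did not overlap either, and the log2 fold change was 0.72 ± 0.25 (edgeR adjusted p = 0.244). The spinous-like and granular-like nuclei overlapped as CPM, with log2 fold changes of 1.43 ± 0.56 (edgeR adjusted p = 0.363) and 1.56 ± 0.41 (edgeR adjusted p = 0.165, DESeq2 adjusted p = 0.0314). A p above the threshold with 3 animals per group does not show that the groups were alike.

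A count of non-overlapping groups has to be read against all genes. SLC16A1 was higher in every MGHS than in every MGNS animal in 6 of 15 tested classes on CPM and in 7 after scaling by TMM factors. In basal-like nuclei this order held for 8.22% and 12.1% of all genes on CPM and after TMM scaling, in cycling nuclei for 6.22% and 10.2%, in T or NK-like nuclei for 7.33% and 6.04% and in macrophage or dendritic-like nuclei for 9.11% and 6.63%. The other classes were fibroblast-like nuclei (9.47% and 9.67%) and cluster 0 (4.52% and 8.81%), with granular-like nuclei (4.44% and 9.36%) added by TMM scaling. For clusters 4 and 3 fitted alone the shares were 7.91% and 9.81%, and 8.78% and 14.8%. The opposite order held for 17.8% and 11.8% of genes in basal-like and for 15.4% and 9.98% in cycling nuclei. In the sum of all nuclei SLC16A1 did not overlap either, at 252.3, 137.8 and 206.6 CPM in MGNS and 273.6, 443.7 and 378.4 CPM in MGHS (0.99 ± 0.28, edgeR adjusted p = 0.146, DESeq2 adjusted p = 0.0135), an order shared by 7.80% and 11.5% of genes. The SLC16A1 classes are not independent of each other, since each animal supplied all of them.

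The mix of layers differed between animals. In all keratinocyte-like nuclei SLC16A1 was at 489.3, 216.2 and 319.2 CPM in MGNS and 399.9, 639.7 and 544.6 CPM in MGHS, and the groups overlapped (0.88 ± 0.35, edgeR adjusted p = 0.262), though not after TMM scaling. In that sum 4.89% and 11.0% of genes had every MGHS animal above on CPM and after scaling. Basal-like nuclei supplied 52.6%, 46.5% and 40.1% in MGNS and 28.8%, 41.4% and 33.8% in MGHS of keratinocyte UMIs, and granular-like nuclei 20.1%, 22.8% and 29.3% in MGNS and 49.6%, 40.996% and 30.1% in MGHS. With the 4 keratinocyte-like classes weighted equally, the level was 408.6, 244.5 and 347.6 in MGNS and 546.3, 638.3 and 506.3 in MGHS (CPM). Every MGHS animal was then above every MGNS animal, as for 7.53% of all genes weighted in this way. That is a log2 ratio of 0.76 (two-sided exact permutation p = 0.1, the smallest that 3 animals against 3 allow).

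Other transcripts also differed between the groups within the basal-like class, in both directions. The 12 basal markers themselves summed to 7206 to 8554 CPM in MGNS and 8625 to 9466 CPM in MGHS, with 8 of 12 higher in MGHS. Granular or upper keratinocyte markers summed to 1178 to 1296 CPM in MGNS and 1773 to 2285 CPM in MGHS (13 of 21 higher), fibroblast markers to 80.9 to 105.3 CPM in MGNS and 140.8 to 292.7 CPM in MGHS (12 of 12) and cycling markers to 162.7 to 272.5 CPM in MGNS and 274.8 to 330.3 CPM in MGHS (11 of 12). T or NK markers summed to 443.9 to 633.2 CPM in MGNS and 323.7 to 380.1 CPM in MGHS (2 of 17 higher), neutrophil markers, which include S100A8 and S100A9, to 3094 to 5029 CPM in MGNS and 831.7 to 2909.7 CPM in MGHS (5 of 9) and melanocyte or Merkel markers to 83.9 to 122.2 CPM in MGNS and 56.98 to 72.3 CPM in MGHS (3 of 7). None of these lists but the last had a marker at 0, which was ATOH1. The other 9 of the 16 lists overlapped between the groups. In cluster 4 alone the basal markers overlapped, at 9959.6 to 11099 CPM in MGNS and 10602 to 11644 CPM in MGHS, while SLC16A1 did not. The part of these transcripts in the SLC16A1 difference was not tested.

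In T or NK-like, macrophage or dendritic-like and fibroblast-like nuclei the SLC16A1 difference came with basal keratinocyte transcripts. T or NK-like nuclei had 29.6, 32.1 and 36.6 CPM in MGNS and 42.9, 68.3 and 80.6 CPM in MGHS of SLC16A1 (log2 fold change 0.92 ± 0.23, edgeR adjusted p = 0.317). Their 12 basal markers summed to 472.1 to 590.8 CPM in MGNS and 584.6 to 938.4 CPM in MGHS, 11 of 12 higher in MGHS. Macrophage or dendritic-like nuclei had 36.3, 23.3 and 39.3 CPM in MGNS and 54.1, 153.1 and 121.7 CPM in MGHS (1.67 ± 0.39, edgeR adjusted p = 0.454, DESeq2 adjusted p = 0.0132), beside basal marker sums of 580.1 to 674.2 CPM in MGNS and 931 to 1497 CPM in MGHS, 12 of 12 higher. Fibroblast-like nuclei had 70.98, 43.3 and 45.6 CPM in MGNS and 75.4, 73.1 and 80.7 CPM in MGHS (0.52 ± 0.22, edgeR adjusted p = 0.366), beside 799.7 to 1079 CPM in MGNS and 1104 to 1195 CPM in MGHS, 10 of 12 higher. With doublets kept the log2 fold change was 1.02 in fibroblast-like and 0.95 in macrophage or dendritic-like nuclei, and without MGNS 1 it was 0.78 in fibroblast-like nuclei. In macrophage or dendritic-like and fibroblast-like nuclei both SLC16A1 and the marker sum were higher in every MGHS animal, and no basal marker was at 0 in any of the 3. SLC16A1 was also higher in MGHS on average in other non-epithelial classes, for which no basal marker sum is given here. Among them were blood endothelial-like (0.61 ± 0.32, edgeR adjusted p = 0.57), lymphatic endothelial-like (0.69 ± 0.83, edgeR adjusted p = 0.844) and pericyte-like nuclei (0.92 ± 0.51, edgeR adjusted p = 0.669). SLC16A1 UMIs per 100 UMIs of the 12 basal markers were 1.70 to 4.03 in MGNS and 3.03 to 4.73 in MGHS in blood endothelial-like nuclei. They were 0.664 to 6.93 and 4.36 to 7.92 in lymphatic endothelial-like and 1.75 to 3.69 and 2.60 to 6.51 in pericyte-like nuclei. In macrophage or dendritic-like nuclei they were 3.69 to 6.26 and 5.81 to 13.9, and in fibroblast-like nuclei 4.70 to 6.58 and 6.31 to 6.87. Whether the SLC16A1 of non-epithelial nuclei is their own was not tested.

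In cluster 0, the unnamed cluster with keratinocyte genes in the lead, SLC16A1 was at 123.5, 151.6 and 147.8 CPM in MGNS and 245.03, 405.7 and 217.5 CPM in MGHS (1.26 ± 0.31, edgeR adjusted p = 0.183), and leaving out MGHS 3, which supplied 3176 of its 5166 nuclei, gave 1.49 with an edgeR adjusted p of 0.0428, where 0.394% of genes passed. The 12 basal markers summed there to 2132 to 2814 CPM in MGNS and 2433 to 3599.9 CPM in MGHS, with 8 of 12 higher in MGHS.

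BSG was also higher in MGHS on average in 15 of 15 classes. These classes are not independent of each other either, since each animal supplied all of them. The part of free RNA in the BSG differences was not tested. The groups did not overlap in 4 classes on CPM and after TMM scaling, which were basal-like, cycling, blood endothelial-like and lymphatic endothelial-like nuclei. The log2 fold change was 0.75 ± 0.32 in basal-like nuclei (edgeR adjusted p = 0.304), 0.62 ± 0.26 in cycling nuclei (edgeR adjusted p = 0.318) and 0.82 ± 0.31 in lymphatic endothelial-like nuclei (edgeR adjusted p = 0.471). In blood endothelial-like nuclei BSG was at 136.9, 92.8 and 133.7 CPM in MGNS and 191.3, 197.2 and 289.8 CPM in MGHS (0.89 ± 0.22, edgeR adjusted p = 0.218). This order, with all 3 MGHS animals above, was found for 8.88% and 8.42% of all genes in blood and for 7.01% and 7.53% in lymphatic endothelial-like nuclei, on CPM and after TMM scaling. MGNS 2 was the lowest of the 6 animals for BSG in basal-like, cycling and spinous-like nuclei, and without it the basal-like log2 fold change was 0.46. MGHS 3 was the highest in the same 3 classes.

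**Figure D4:**
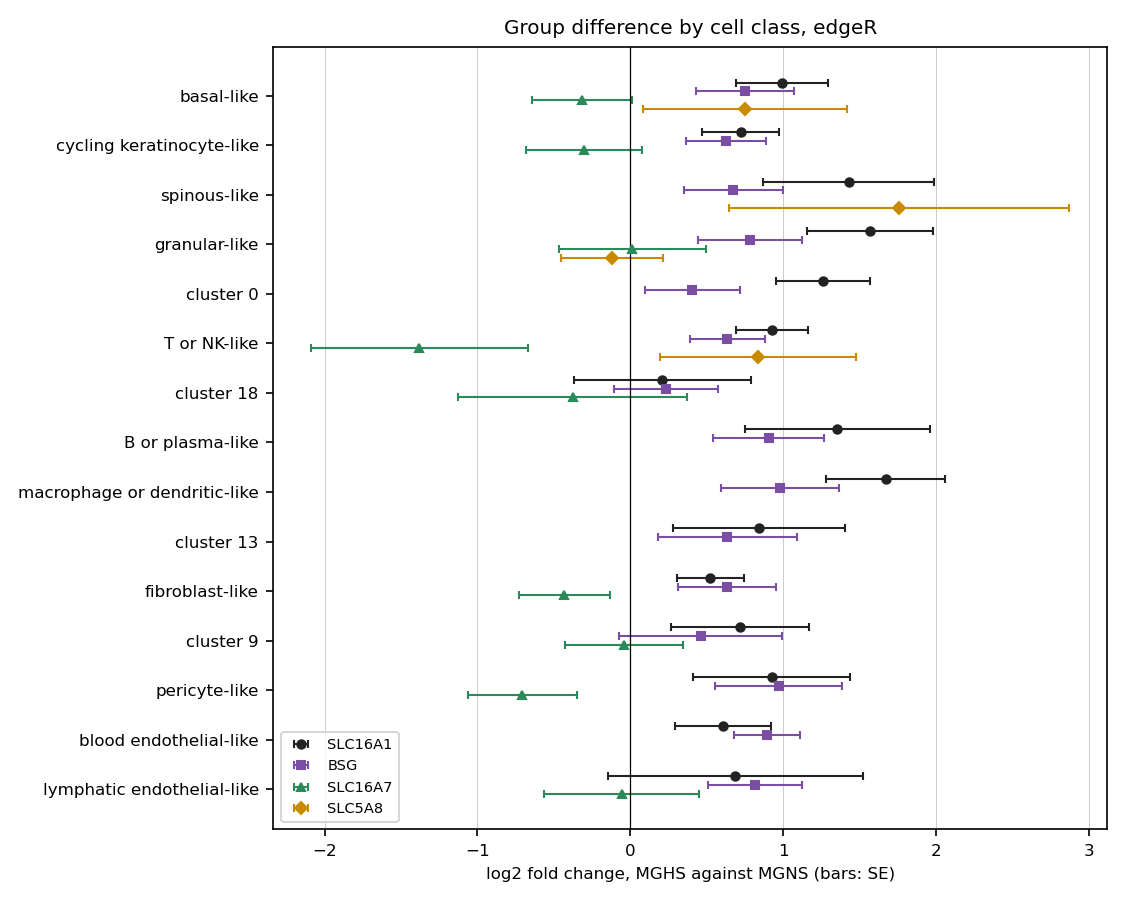
log2 fold change of MGHS against MGNS with its SE (bars) from edgeR for SLC16A1, BSG, SLC16A7 and SLC5A8 in each class where the gene passed the low-count filter. All 15 SLC16A1 points and all 15 BSG points lie right of 0, and 8 of 9 SLC16A7 points lie left of 0, with none passing an adjusted p of 0.05.

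SLC5A8 overlapped between the groups in the granular-like nuclei that hold most of it, with a log2 fold change of -0.12 ± 0.33 (edgeR adjusted p = 0.8896). In spinous-like nuclei it was 1.76 ± 1.11 (edgeR adjusted p = 0.554) with MGHS 3 and -0.72 (edgeR adjusted p = 0.734) without it, so the direction there rested on MGHS 3. Over all keratinocyte-like nuclei SLC5A8 was at 86.6, 52.6 and 84.9 CPM in MGNS and 101.2, 64.9 and 119.1 CPM in MGHS, overlapping (0.58 ± 0.28, edgeR adjusted p = 0.3304). In the sum of all nuclei the log2 fold change was 0.69 ± 0.28 (edgeR adjusted p = 0.2299). In such sums a larger share of a cell type and more RNA per nucleus cannot be told apart. Granular-like nuclei were 6.64 ± 1.68% of nuclei in MGNS and 13.9 ± 3.89% in MGHS (SD, n = 3).

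SLC16A7 had values in the other direction, with a log2 fold change below 0 in 8 of 9 tested classes. It was -0.43 ± 0.30 in fibroblast-like nuclei (edgeR adjusted p = 0.565), where MGNS 3 was highest and the groups overlapped. Without MGNS 3 it was -0.03. In basal-like nuclei it was -0.32 ± 0.33 (edgeR adjusted p = 0.632). The groups overlapped in each of the 9 classes.

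SLC16A3 and SLC16A4 gave no difference that could be separated from the spread between animals. In the sum of all nuclei SLC16A3 was at 3.4001, 2.81 and 3.65 CPM in MGNS and 2.197, 2.48 and 2.07 CPM in MGHS, without overlap (-0.44 ± 0.25, edgeR adjusted p = 0.353), an order that 22.3% and 15.8% of genes had on CPM and after TMM scaling. T or NK-like nuclei were 24.4 ± 4.53% of nuclei in MGNS and 15.4 ± 5.803% in MGHS (SD, n = 3), and macrophage or dendritic-like nuclei 7.43 ± 0.897% and 5.27 ± 1.01%. Within T or NK-like nuclei the SLC16A3 log2 fold change was 0.57 ± 0.36 (edgeR adjusted p = 0.754), and within macrophage or dendritic-like nuclei -0.23 ± 0.38 (edgeR adjusted p = 0.9199). For SLC16A4 it was 0.05 ± 0.48 in cycling nuclei (edgeR adjusted p = 0.977).

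Whether the group difference itself varied between layers was tested with a layer-by-group term and the animal as a block. For SLC16A1 the difference was larger by 0.40 ± 0.46 in spinous-like than in basal-like nuclei (log2, SE, edgeR adjusted p = 1.00), by 0.46 ± 0.46 in granular-like than in basal-like nuclei (edgeR adjusted p = 0.696) and by 0.06 ± 0.49 in granular-like than in spinous-like nuclei (edgeR adjusted p = 0.9905). Between cycling and basal-like nuclei it was -0.26 ± 0.43. None of 20 such edgeR tests of the 5 genes covered was called, and 0 had an unadjusted p under 0.05. Of 15383 genes 0.00650% were called between spinous-like and basal-like nuclei, 0.325% between granular-like and spinous-like, 2.42% between granular-like and basal-like and 0% between cycling and basal-like nuclei. The SLC16A1 difference was therefore not shown to belong to any layer.

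A list of 60 other genes of acid transport, pH control and short-chain fatty acid and ketone metabolism was read beside the transporters. Of these, 59 were in the files and 49 were tested in all keratinocyte-like nuclei. None passed edgeR's threshold in either direction, there or in any of the 4 keratinocyte-like classes, and 12 had an unadjusted p under 0.05, where 17.4% of all genes did. The median log2 fold change was 0.08 with 29 of 49 above 0, against 0.02 over all 16388 genes. DESeq2, which called 5.86% of all genes there, called genes in both directions. Higher in MGHS were, among others, CA1, a carbonic anhydrase, and SLC9A3, a sodium-proton exchanger. The 3 called lower were SLC16A14, an orphan member of the transporter family, PDK4, a kinase that switches off pyruvate dehydrogenase, and HIF1A, the oxygen-regulated transcription factor.

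In the edgeR fit of all keratinocyte-like nuclei SLC16A1 had a log2 fold change of 0.88 ± 0.35 (adjusted p = 0.262). The list genes named next were picked for the smallest p in each direction, and each had a smaller adjusted p than SLC16A1. The smallest p-values among genes with lower values in MGHS belonged to PDK4 (log2 fold change -1.14 ± 0.20, adjusted p = 0.133), HIF1A (-1.01 ± 0.21, 0.143), SLC16A14 (-1.73 ± 0.38, 0.145), ATP1B1, a subunit of the sodium pump (-0.71 ± 0.19, 0.176), and OXCT1, which activates ketone bodies for use (-1.45 ± 0.56, 0.252, and -0.62 without MGNS 2). Among genes with higher values they included SLC9A3 (1.33 ± 0.37, 0.179), MPC1, a mitochondrial pyruvate carrier subunit (0.69 ± 0.21, 0.188), CA1 (1.38 ± 0.46, 0.209) and ACAT1, a mitochondrial thiolase (0.68 ± 0.23, 0.209). Without MGHS 3, SLC9A3 was the only gene of the list to pass, at 1.66 ± 0.24 with an edgeR adjusted p of 0.046, where 1.04% of all genes passed.

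The genes whose levels over the 15 classes were most like each transporter were found by Pearson's r of class means of log2(CPM + 1), where the classes share libraries and free RNA and r, given in parentheses, is a description. For SLC16A1 they were KRT15, a keratin of basal cells (0.991), COL17A1, a hemidesmosome collagen (0.991), TMT1A (0.989), HSD17B2 (0.985) and TNS4 (0.985). BSG was nearest to HADH (0.980), HINT1 (0.971), PDHA1 (0.970), NDUFA8 (0.970) and IDH3B (0.968), of which HADH, PDHA1, NDUFA8 and IDH3B code for mitochondrial proteins. SLC5A8 was nearest to PAG3 (0.987), PADI1, a peptidylarginine deiminase (0.980), PLA2G2F (0.979), GLYAT (0.978) and ACP7 (0.976). For SLC16A7 they were GPC4 (0.934), MORC4 (0.933), LOXL1 (0.914), SCRN1 (0.913) and COL14A1 (0.911), and for SLC16A3 they were NCF4 (0.968), TAGAP (0.957), CYTH4 (0.956), DUSP2 (0.954) and ABCA7 (0.951). SLC16A4 reached 8.11 CPM at most and was not compared.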

How the data were processed

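Barcodes, genes and whole-number UMI counts were deposited by the authors, 1 matrix per animal, unscaled per the file headers and values. Cell Ranger is 8.0.0 per the file headers and 2.1.1 per the submitters' processing notes. Nothing is stated of the build, the annotation or the barcode filter (not given in the sources used here). Gene numbers were matched to symbols (26741 of 26741) with a RefSeq table of ARS-UI_Ramb_v3.0, used for names only.

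Nuclei needed 300 genes or more and a mitochondrial share of UMIs of 10% or less, and the 0.5% of barcodes with most UMIs per library were left out. Scrublet (scanpy 1.11.5) or, where it called under 0.5% (MGNS 1 and 2), the top scores at 0.8% per 1000 nuclei removed 3593 doublets. Log-scaled counts of 2000 variable genes gave 30 principal components and a graph with 5 neighbours per library. Leiden clustering (igraph 0.11.9, resolution 0.8) was run from 60 seeds with 30 iterations each, and the partition of highest modularity was kept, with 23 clusters named from 16 marker lists. Clusters 0, 9, 13, 18 and 21 stayed unnamed. Cluster 21 and the glia-like class had under 20 nuclei in an animal and were not fitted. CPM, percentages and log2 fold changes were computed from the counts, and a floor is 3 counts and covers counting error only.

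UMIs summed per animal were tested at an adjusted p of 0.05 by the robust quasi-likelihood F test of edgeR 4.0.16 (R 4.3.3), after TMM scaling and a filterByExpr filter whose minimum count was 10. An SE is the absolute log2 fold change over the square root of F. DESeq2 1.42.0, limma 3.58.1 (voom) and other filters, clusterings and left-out animals were alternatives, and the code was tested on simulated data. No batch is named in the labels. The 6 genes and all lists were chosen with earlier results of these data known. Named list genes are those called or, failing that, the 5 with the smallest p in each direction, with 1 gene not reported here, and the genes named for likeness are the 5 with the highest r.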

Additional observations from a re-analysis of the deposited data

How the results depend on the processing

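Of 46 tested gene results, 36 kept their direction in every alternative run. Over 770 alternatives in all, 16 moved past the threshold and 20 changed sign. Genes called in all keratinocyte-like nuclei were 0 of 16388 with edgeR (2851 at an unadjusted p under 0.05) and 0 with limma voom, 14 without the low-count filter, 960 with DESeq2, 1 each at resolution 1.2 and with the next-best partition, and 0 to 174 with 1 animal left out, 174 without MGHS 3. Member tests called were 4 without the filter, 5 with DESeq2 and 0 to 1 with 1 animal left out, the 1 being SLC16A1 in cluster 0 without MGHS 3, against 0.0931% of all gene tests. DESeq2 gave SLC16A1 log2 fold changes of 0.98 in basal-like and 1.59 in granular-like nuclei. The listed pathway genes called were 0 to 1 with 1 animal left out. The edgeR, limma and DESeq2 adjusted p of SLC16A1 ranged over its alternatives from 0.0306 to 0.358 in basal-like, from 0.148 to 0.616 in spinous-like, from 0.0314 to 0.396 in granular-like and from 0.0699 to 0.488 in cycling nuclei. Thinned to 500 UMIs, 30.1% of basal-like nuclei had an SLC16A1 UMI in place of 45.7% at 1000 UMIs.

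Signs changed in small or sparse differences and in larger SLC5A8 differences that turned without MGHS 3. The cause was not tested. SLC5A8 in granular-like nuclei was 0.0507 at resolution 1.2 and -0.29 to 0.13 with 1 animal left out (above 0 without MGNS 1), and in spinous-like nuclei -0.19 with limma voom and -0.72 to 2.35 with 1 animal left out (below 0 without MGHS 3). With 1 animal left out SLC16A7 was -0.61 to 0.0089 in basal-like and -0.53 to 0.0261 in all keratinocyte-like nuclei, above 0 without MGNS 3 in both. SLC16A4 in all nuclei was -0.13 with limma voom and -0.29 to 0.55 with 1 animal left out (below 0 without MGHS 3), and in cycling nuclei -0.42 with limma voom, -0.0478 with the replicate block and -0.21 to 0.41 with 1 animal left out (below 0 without MGNS 2, MGHS 2 or MGHS 3). With 1 animal left out, the layer differences were -0.11 to 0.75 (SLC16A1, spinous-like minus basal-like, below 0 without MGHS 3), -0.20 to 0.56 (SLC16A1, granular-like minus spinous-like, below 0 without MGNS 1, MGNS 3 or MGHS 2), -0.17 to 0.20 (BSG, granular-like minus basal-like, above 0 without MGNS 2 or MGHS 1) and -1.67 to 0.59 (SLC5A8, granular-like minus spinous-like, above 0 without MGHS 3). Same-numbered animals of the 2 groups are different sheep. Their deviations correlated at -0.124, -0.066 and 0.023 in all keratinocyte-like nuclei and at -0.046, -0.074 and 0.135 in basal-like nuclei. Deviations from the mean of 3 animals per group cannot show whether the numbers mark a shared block. With a replicate block no member was called, as without it, and SLC16A1 was 0.93 in all keratinocyte-like (adjusted p = 0.392) and 1.05 in basal-like nuclei (adjusted p = 0.217). Depth limits SLC16A3 and SLC16A4, at 594 and 550 UMIs in all.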
